A study of Mus musculus with 19 samples.

Results

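A set of 9 genes known to be held low in male mouse liver by pulsatile growth hormone was examined: Cux2, Fmo2, A1bg, Ntrk2, Prom1, Atp6v0d2, Hao2, Acot3 and Tox. They were chosen by symbol, and all 9 were among the 24537 genes of the table. RNA was sequenced from hepatocytes, the parenchymal cells that do most of the liver's metabolism, isolated by perfusion from mice of a single line, giving 19 libraries that are each taken here as 1 mouse. Every mouse was a wild-type C57BL/6J male, with no treatment named. The young group was 10 mice of 5 months and the old group was 9 mice of 24 months. Mice were culled on 2 days, 23 days apart: 5 of each age on the first, then 5 young and 4 old animals on the second. Mice are named by their library numbers. All were male, so the sex bias these genes are known for could not be checked here.

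In rodents the pituitary releases growth hormone in pulses in males and almost continuously in females. Each pulse activates the transcription factor STAT5 in hepatocytes, which sustains a set of male-biased genes and, with repressors such as BCL6, keeps a set of female-biased genes low. CUX2, a homeodomain repressor found in female liver, is itself one of the genes that pulses hold down, and HNF6 (Onecut1) binds a related DNA sequence.

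The 5′ flanks of the members were read from RefSeq (GRCm38.p6), which held 11 starts for 7 of the 9 members. The members not found were Atp6v0d2 and Tox. Each window of 250 bases before to 50 after a start was searched on both strands for TTCNNNGAA, the core letters bound by STAT5, and for ATCGAT, letters bound by HNF6 and CUX2. Both are the same on either strand, and their matches in these windows did not overlap. The TTCNNNGAA letters were in a window of 2 members, A1bg (first base at -84) and the second start of Fmo2 (first base at 12 after the start), and in 8.30% of all 32851 windows of that length. A member was counted if any of its windows matched, while the shares are per window. The ATCGAT letters were in a window of 1 member, the second start of Cux2 (first base at -72), and in 0.925% of all windows. That start lies 2026 bases from the start of the counted Cux2 transcript, whose own window held neither set of letters. The 250 bases before the start are printed for 4 members, with matches in capitals. Ntrk2 is shown because it had the widest gap between ages, Hao2 and A1bg because both peaked in the same old mouse. Cux2 is shown at its second start, for its match. The Ntrk2 and Hao2 windows held neither set of letters. The windows are chr13:58806319-58806568, plus strand, for Ntrk2; chr3:98893231-98893480, minus strand, for Hao2; chr15:60921271-60921520, minus strand, for A1bg; and chr5:122047826-122048075, minus strand, for Cux2.
Ntrk2: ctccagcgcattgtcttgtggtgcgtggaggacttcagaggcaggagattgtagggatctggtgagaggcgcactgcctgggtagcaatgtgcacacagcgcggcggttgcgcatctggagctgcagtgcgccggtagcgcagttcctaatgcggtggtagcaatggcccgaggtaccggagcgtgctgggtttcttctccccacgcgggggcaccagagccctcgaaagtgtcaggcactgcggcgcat
Hao2: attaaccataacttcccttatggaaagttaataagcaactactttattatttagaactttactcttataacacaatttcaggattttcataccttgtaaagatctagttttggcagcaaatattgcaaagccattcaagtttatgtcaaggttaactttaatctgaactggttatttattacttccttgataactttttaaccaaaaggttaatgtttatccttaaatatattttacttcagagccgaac
A1bg: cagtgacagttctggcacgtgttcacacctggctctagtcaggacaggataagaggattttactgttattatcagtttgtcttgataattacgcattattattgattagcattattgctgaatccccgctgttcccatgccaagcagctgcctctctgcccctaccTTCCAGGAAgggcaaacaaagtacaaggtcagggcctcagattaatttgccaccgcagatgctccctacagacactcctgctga
Cux2: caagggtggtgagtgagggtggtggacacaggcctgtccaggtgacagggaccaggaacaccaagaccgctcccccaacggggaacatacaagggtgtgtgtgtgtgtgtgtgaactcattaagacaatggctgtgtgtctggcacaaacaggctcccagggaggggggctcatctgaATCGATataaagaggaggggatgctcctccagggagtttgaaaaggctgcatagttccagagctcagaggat

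Libraries held 17381439 to 20287628 counts over genes. Levels are counts scaled to a common library total (CPM) after trimmed mean of M-values scaling, and 12269 genes passed the filter on low counts. Of the members, Ntrk2, Atp6v0d2, Acot3, Tox and Fmo2 passed it, while Cux2, A1bg, Prom1 and Hao2 did not. The hepatocyte label was borne out by markers: all 20 hepatocyte markers were detected, with a summed level of 148750 to 249740 CPM over the 19 libraries. Of these, 7 were lower and 2 higher in old mice by edgeR's adjusted p, where 30.9% of all tested genes were called. Markers of other cells were also present, and those of several types were higher in old mice. By edgeR's adjusted p, 13 of 14 macrophage, 11 of 15 endothelial and 15 of 15 stellate or fibroblast markers were higher, and no marker of these lists was at 0 in all libraries. Summed macrophage markers were 111 to 555 CPM in young and 72.5 to 3557 CPM in old mice. The endothelial sums were 235 to 457 and 255 to 812 CPM, and the stellate sums 53.0 to 143 and 151 to 535 CPM. Old mouse 1187 had the highest of all 3 sums. None of the 3 tested cholangiocyte markers was called, and their list's sum was highest in young mouse 1186, at 179 CPM against at most 76.8 CPM in old mice. Young mice 1184, 1186 and 1188, all of the first cull day, had summed acute-phase transcripts of 73138 to 121510 CPM, against at most 28075 CPM in the other 7 young mice and 28657 to 86545 CPM in old mice. In these bulk libraries, fewer cells of a type and less RNA per cell cannot be told apart.

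Ntrk2 and Atp6v0d2 were called higher in old mice, 2 of the 5 members tested, and no member was called lower (edgeR's quasi-likelihood test with cull day as a term, Benjamini-Hochberg adjusted p under 0.05 over all tested genes). Over all tested genes 30.9% were called in either direction and 16.3% were called higher in old mice. Since the members were proposed with this contrast known, their age differences are given as descriptions. The other 3 tested members ran from a log2 fold change (24 over 5 months) of -0.06 for Fmo2 to 1.19 for Acot3. Without the filter, Hao2 was called as well, 3 of 9 members, where 24.9% of 17806 genes were called in either direction and 13.3% were called higher. With old mice 1181 and 1187 left out of that unfiltered fit, 1 of 9 was called, Ntrk2, where 15.9% of 17540 genes were called. The log2 fold change of Atp6v0d2 was 1.09 there, against 1.21 in the unfiltered fit of all mice.

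**Figure D1:**
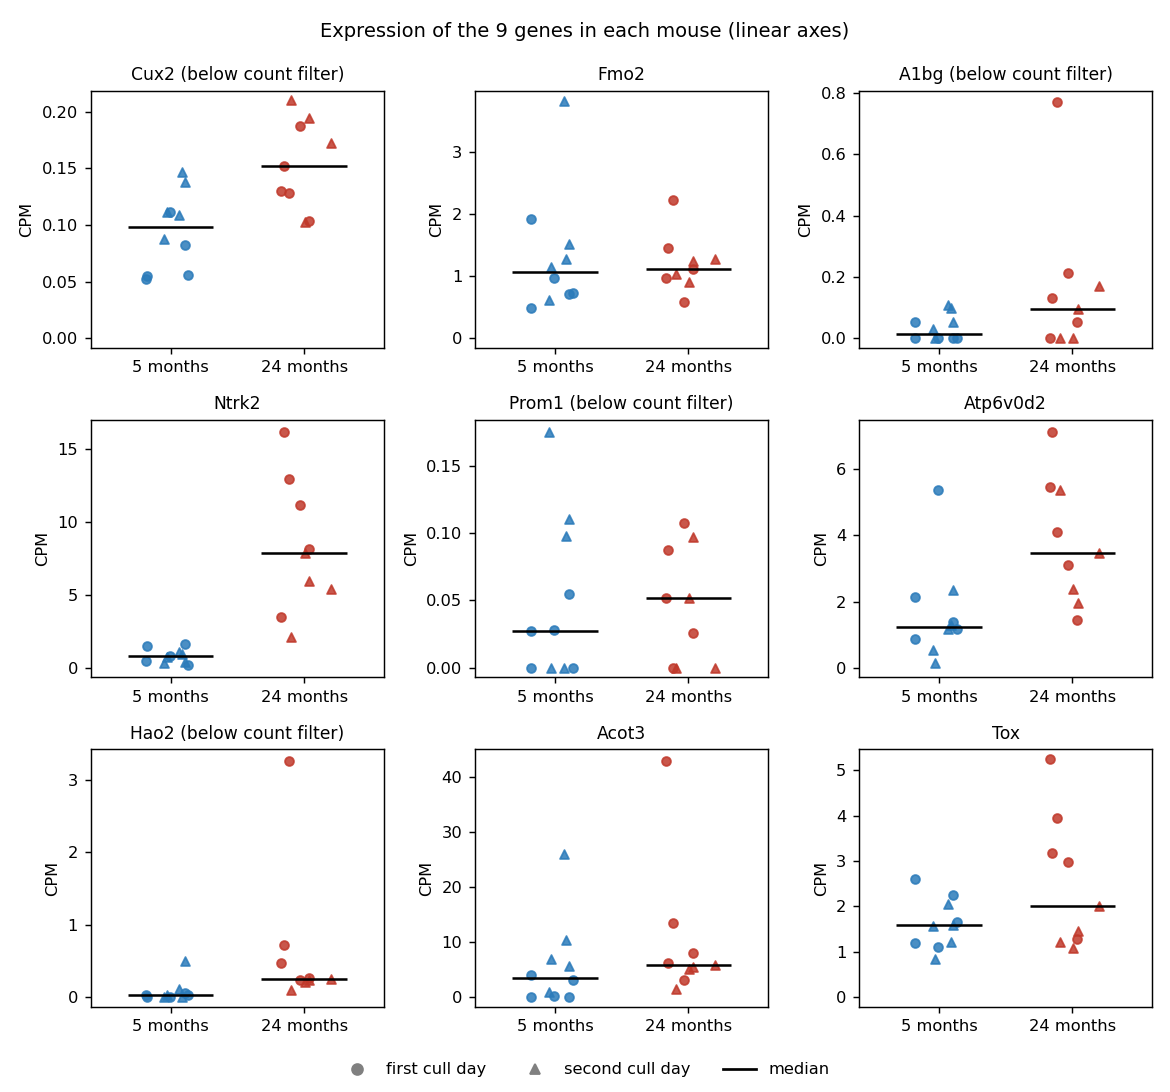
Level of each member (CPM, linear axis with its own scale per panel) in the 10 mice of 5 months (blue) and 9 of 24 months (red), with circles for the first cull day, triangles for the second and a line at the group median. Ntrk2 is the member whose old mice (2.08 to 16.2 CPM) all lie above its young mice (0.196 to 1.64 CPM), and single high mice stand apart in A1bg, Hao2 and Acot3.

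Compared per kilobase of counted exon, the members differed widely in level. In young mice Acot3 had the highest mean at 2.14 ± 2.95 CPM per kb, followed by Atp6v0d2 at 0.659 ± 0.589, Tox at 0.567 ± 0.194 and Fmo2 at 0.397 ± 0.296 (SD, n = 10). Atp6v0d2, Tox and Fmo2 lay within 1 SD of their neighbours among these 3, and the gap from Acot3 to Atp6v0d2 was within the SD of Acot3 but not that of Atp6v0d2. Ntrk2 came next at 0.116 ± 0.0699 CPM per kb, and Hao2, Cux2, A1bg and Prom1 were at 0.0365, 0.0194, 0.0191 and 0.0133 CPM per kb. In old mice Acot3 remained first at 3.79 ± 4.74 CPM per kb and Atp6v0d2 second at 1.54 ± 0.749 (SD, n = 9). Ntrk2 came next in old mice at 1.16 ± 0.652 CPM per kb, ahead of Tox at 0.875 ± 0.510 and Fmo2 at 0.361 ± 0.138, where the steps from Atp6v0d2 to Ntrk2 and from Ntrk2 to Tox were within 1 SD and that from Tox to Fmo2 was not. The lowest were Hao2 at 0.314, A1bg at 0.0879, Cux2 at 0.0313 and Prom1 at 0.0126 CPM per kb.

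Ntrk2 (chr13:58806569-58937031, plus strand, mm10) encodes TrkB, the receptor tyrosine kinase for the neurotrophin BDNF. It overlaps no other gene of the table. In young mice it was at 0.196, 0.781 and 1.64 CPM (lowest, median and highest). In old mice it was at 2.08, 7.90 and 16.2 CPM. The groups did not overlap: every old mouse was above every young mouse, as held for 120 of the 12269 tested genes (0.978%). The highest old mice were 1187 (16.2 CPM) and 1181 (13.0 CPM), and the lowest was 1242. Mean level was 0.816 ± 0.490 CPM for young (SD, n = 10) and 8.15 ± 4.57 CPM for old animals (SD, n = 9), a 9.98-fold ratio of means and a fitted log2 fold change of 3.21 (SE 0.353). Among old mice the highest had 372 counts and the lowest 39.5.

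The age gap of Ntrk2 was present on both cull days. On the first day the means were 0.941 ± 0.633 CPM in young (n = 5) and 10.4 ± 4.82 CPM in old mice (n = 5). On the second they were 0.691 ± 0.319 CPM (n = 5) and 5.34 ± 2.42 CPM (n = 4). The log2 fold change was 3.44 on the first day alone and 2.92 on the second. With the stellate marker score as a covariate it was 2.68, and without young mice 1184, 1186 and 1188 it was 3.50, the lowest and highest of all alternatives run. Within old mice the relation of Ntrk2 to the score of other-cell markers did not pass (r = 0.15, exact permutation p = 0.732; rho = -0.08, exact permutation p = 0.843; n = 9, adjusted p = 0.877 and 0.949 over 18 relations). Without the 2 mice farthest from the median score, r was -0.68.

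The counted Ntrk2 transcript (NM_008745) covers a subset of the locus. By span and exons it matches a GENCODE M21 transcript with 13 exons and 476 codons. The longest coding transcript has 18 exons and 821 codons and runs on to position 59129965. TrkB is known in a short form without the kinase domain and in a full-length form with it. The deposited value counts the exons of the shorter model, so exons found only in the longer transcript do not enter it, and reads in shared exons cannot be assigned to either form from a gene count.

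Acot3 (chr12:84052144-84060400, plus strand), a peroxisomal acyl-CoA thioesterase, had the widest spread among mice of the tested members. Young mice were at 0.0273, 3.54 and 26.0 CPM (lowest, median and highest), and old mice at 1.58, 5.78 and 42.9 CPM. The groups overlapped: 1 of 9 old mice, 1189, lay above all young mice, and 4 of 10 young mice, 1184, 1186, 1188 and 1235, lay below all old mice. The fitted log2 fold change was 1.19 (SE 0.950), and the gene was not called. That value was 0.60 without old mouse 1189, 2.43 once the other-cell score entered the fit and 3.21 once the stellate score did. The second-highest old mouse was 1181 at 13.4 CPM, and the highest young mouse was 1243.

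The 3 lowest Acot3 values of all 19 libraries were in young mice 1184, 1188 and 1186, at 0.0273, 0.110 and 0.195 CPM. The other 7 young mice ran from 0.904 to 26.0 CPM. The same 3 mice had the high acute-phase sums. Saa2, an acute-phase apolipoprotein, was at 3656 to 10141 CPM in them and at 9.35 to 22.4 CPM in the other 7. Without these 3 mice the Acot3 log2 fold change was -0.11 in place of 1.19, while with the acute-phase score as a covariate and all mice kept it was 1.98.

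The age difference of Acot3 had opposite signs on the 2 cull days. On the first day, which held those 3 mice, means were 1.48 ± 1.91 CPM in young (n = 5) and 14.7 ± 16.2 CPM in old mice (n = 5), a log2 fold change of 3.31. On the second day they were 10.02 ± 9.60 CPM (n = 5) and 4.47 ± 1.95 CPM (n = 4), a log2 fold change of -1.15. The age by cull day term was -4.46 (SE 1.32, log2), with an unadjusted edgeR p of 0.00332 and an adjusted p of 0.638. No member passed for that term: 0 of 12269 genes did (0%), with 799 genes, 6.51%, and 1 of 5 members at an unadjusted p under 0.05. DESeq2 called 20 genes, but it gave the 5 members no adjusted p for this term, so it could not call them.

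Among the genes most like it were Acot4 (r = 0.935), Acot2 (0.903), Cyp4a14 (0.882) and Cfd (0.872), by correlation of log2 CPM with age by cull day means subtracted, over 19 libraries. These libraries share depth and the 3 low young mice. This choice of the likest genes for a single member was made after the data were seen. Acot4 and Acot2 lie beside Acot3, and reads of these close relatives may have been split between them, so each value is uncertain. Cyp4a14, a fatty acid omega-hydroxylase induced by PPAR alpha, was at most 2.28 CPM in young mice 1184, 1186 and 1188 and at 14.8 to 466 CPM in the other 7. Of 30 tested PPAR alpha targets, the fatty acid oxidation program, 1 was higher in old mice (Pdk4, log2 fold change 1.17, SE 0.321, edgeR adjusted p = 0.0112) and 2 were lower, among them Creb3l3 at -0.26. That is 3 of 30 called, where 30.9% of all tested genes were. The median over the list was -0.20, against -0.003 over all tested genes. Without the 3 young mice 15 of 30 were lower and none higher, where 27.2% of all genes were called, and without old mouse 1181, 7 were called, where 29.8% of all genes were. With the other-cell covariate 5 were higher and 0 lower, where 13.2% of all genes were called, and the median was 0.23.

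**Figure D2:**
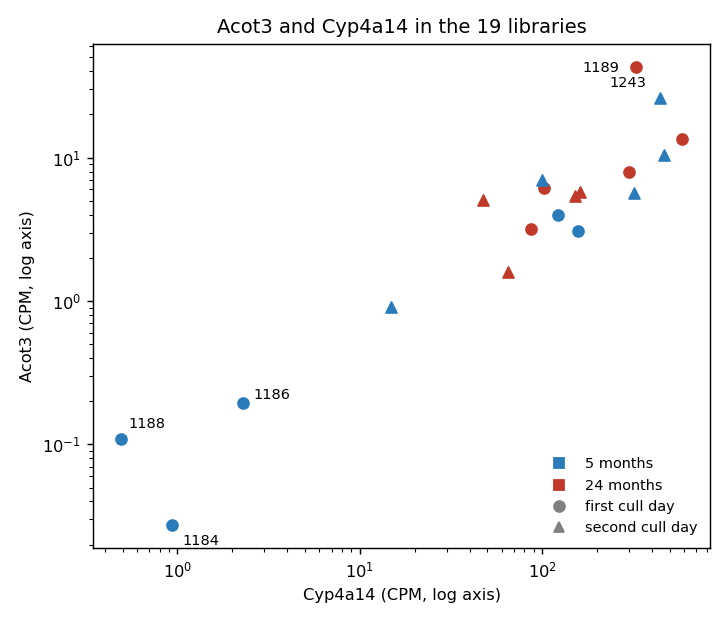
Acot3 against Cyp4a14 (CPM, log axes) in the 19 libraries, with age by colour, cull day by shape and 5 mice numbered. Young mice 1184, 1186 and 1188 sit apart at the low end of both genes, at most 0.195 CPM for Acot3 and 2.28 CPM for Cyp4a14.

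Atp6v0d2 (chr4:19876838-19922566, minus strand), a subunit of the proton-pumping V-ATPase best known from osteoclasts and macrophages, was the other member called. Young mice were at 0.140, 1.24 and 5.38 CPM (lowest, median and highest), and old mice at 1.45, 3.47 and 7.14 CPM. The groups overlapped, since young mouse 1186 at 5.38 CPM exceeded 7 of 9 old mice, while the next young mouse was at 2.34 CPM. The highest old mice were 1187 and 1189. The means were 1.64 ± 1.47 CPM (SD, n = 10) and 3.83 ± 1.87 CPM (SD, n = 9), with a fitted difference of 1.24 on the log2 scale (SE 0.408). That difference was 0.96 for the first cull day alone and 1.58 for the second alone.

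The age difference of Atp6v0d2 was smaller with most scores of other-cell markers in the fit. Its log2 fold change was 0.55 once the other-cell score entered as a covariate, with the macrophage score 0.75, with the endothelial score 0.63 and with the stellate score 0.30, and it was called under none of these (13.2% of all genes were called with the other-cell score). Summed stellate markers did not overlap between ages (at most 143 CPM in young, at least 151 CPM in old mice). A fit with the stellate score can thus hardly separate it from age, for this or any other member. With the cholangiocyte score it was 1.19 and the gene was still called. The call was also lost on the first cull day alone and without old mouse 1187 (log2 fold change 1.11) or old mouse 1242 (1.08). Within old mice its level was higher where the other-cell score was higher (r = 0.79, exact permutation p = 0.00601; rho = 0.70, exact permutation p = 0.0433; n = 9), but the adjusted p over 18 relations was 0.0959 for r and 0.26 for rho. Without the 2 mice farthest from the median score r was 0.39, and without single old mice it ran from 0.65 to 0.87. Leaving out the most extreme scores narrows their range, which by itself can lower r. In young mice r was -0.00 (permutation p = 0.995, n = 10). The part of other cells in its age difference was not tested beyond these values.

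**Figure D3:**
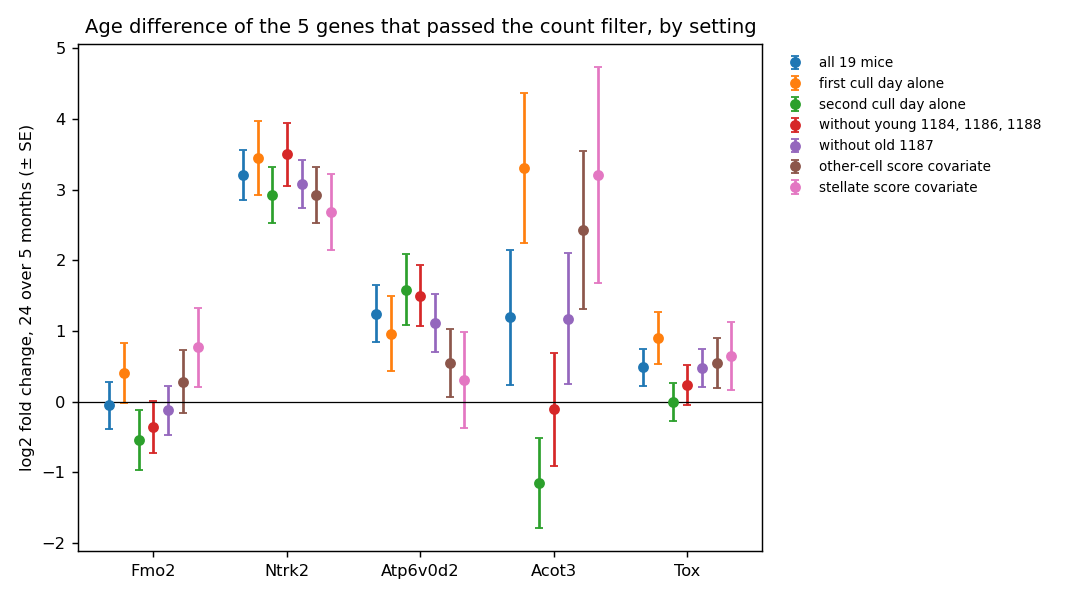
Fitted age difference (log2 fold change, 24 over 5 months, bars are SE) of the 5 members that passed the filter, under 7 sets of mice or covariates. Ntrk2 stays between 2.68 and 3.50, Atp6v0d2 falls to 0.30 with the stellate score, and Acot3 runs from -1.15 to 3.31.

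Tox (chr4:6687386-6990723, minus strand), a nuclear HMG-box protein best known from T cells, was not called. Young mice were at 0.839, 1.59 and 2.61 CPM and old mice at 1.08, 2.02 and 5.24 CPM, with 4 of 9 old mice above all young mice. Those 4 were all of the first cull day, led by 1189 and 1181. The log2 fold change was 0.49 (SE 0.262). Taken by day, it was 0.90 for the first and -0.01 for the second. T and NK cell markers, of which 1 passed the filter and was not called, summed to 1.05 to 3.59 CPM in young and 1.59 to 39.4 CPM in old mice, and their part in the level of Tox was not tested.

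Tox was the tested member with the smallest p for cull day. Across both ages its fitted difference, second day over first, was -0.72 on the log2 scale (SE 0.265, edgeR unadjusted p = 0.0135, adjusted p = 0.0772). It passed under DESeq2 (-0.72, adjusted p = 0.047), which called 16.8% of genes for cull day, and, by edgeR, without old mouse 1183 (-0.80, adjusted p = 0.0305). By edgeR over all 19 libraries 0 of 5 members passed, and 2 did at an unadjusted p under 0.05, where 12.3% of all genes passed after adjustment and 30.0% before. Without young mice 1184, 1186 and 1188, 0 genes passed for cull day.

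Fmo2 (chr1:162875047-162898712, minus strand), a flavin-containing monooxygenase of drug metabolism, showed no steady direction with age. Young mice were at 0.492, 1.06 and 3.82 CPM and old mice at 0.590, 1.12 and 2.23 CPM. All 9 old mice lay below the highest young mouse, 1243, and the highest old mouse was 1181. The log2 fold change was -0.06 (SE 0.339), and it was 0.00 with scaling by library totals, 0.41 on the first cull day alone, -0.55 on the second and 0.77 with the stellate score as a covariate.

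Among young mice, Fmo2 and Acot3 were lower where other-cell markers were higher, but neither relation passed adjustment. For Fmo2, r was -0.73 (permutation p = 0.016) and rho -0.79 (permutation p = 0.00915), with adjusted p of 0.0959 and 0.165 over 18 relations (n = 10). For Acot3, r was -0.76 (permutation p = 0.0131) and rho -0.62 (permutation p = 0.0616), with adjusted p of 0.0959 and 0.277 (n = 10). Without the 2 mice farthest from the median score, r was -0.74 for Fmo2 and -0.49 for Acot3. These 2 members also had the highest correlation of any tested pair once age by cull day means were subtracted (r = 0.636). The other 9 pairs ran from -0.301 to 0.422 over the same 19 libraries.

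Hao2 (chr3:98874519-98893230, minus strand), a peroxisomal 2-hydroxy acid oxidase, was near the limit of detection in young mice. Young libraries held 0, 0.5 and 9 counts (lowest, median and highest), with 4 at 0 and 1 above the floor of 3 counts. Old libraries held 2, 5 and 63.5 counts, with 8 of 9 above the floor. Most of the old signal was in mouse 1181, at 3.25 CPM, followed by 1187 at 0.718 CPM. Young mouse 1239 at 0.495 CPM exceeded 7 of 9 old mice. The median was 0.0271 CPM in young and 0.246 CPM in old mice.

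A1bg (chr15:60917589-60921270, minus strand), a secreted protein of the immunoglobulin superfamily, had 0 to 2 counts per young library and 0 to 15 per old library. No young library and 3 old libraries were above 3 counts. The highest was again mouse 1181 at 0.768 CPM, followed by 1185 at 0.214 CPM, and 3 old libraries were at 0. Prom1 (chr5:43993622-44101736, minus strand), a membrane glycoprotein of epithelial progenitors also called CD133, had 0 to 3 counts in young and 0 to 2 in old libraries, so a difference was not detectable at this depth.

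Cux2, on the minus strand at chr5:121860216-122049851, was barely detected at either age. Young libraries held 1 to 3 counts (median 1.75) and old libraries 2 to 4 counts (median 3.5), that is 0.0527 to 0.147 and 0.103 to 0.211 CPM. No young library and 5 old libraries exceeded 3 counts, and 4 of 9 old mice fell within the young range. Mouse 1181, highest in Hao2, A1bg and Fmo2, was seventh of 9 old mice in Cux2 at 0.128 CPM. Within old mice 0 of 8 relations of Cux2 to the other members passed an adjusted p of 0.05. The strongest was with Acot3 (r = -0.70 and rho = -0.65, with exact permutation p of 0.0145 and 0.0666 and adjusted p of 0.116 and 0.532 over the 8, n = 9). Without the 2 mice farthest from the median of Cux2, r was -0.80, and without old mouse 1236 it was -0.81 and passed (exact permutation, adjusted p = 0.00893, n = 8). Among young mice 0 of 8 passed. At 2 to 4 counts a library, rounded to whole counts for the correlations, these relations carry little information.

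The members did not share one order among the old mice. Mouse 1181 was highest in Hao2, A1bg and Fmo2 and second in Ntrk2, Acot3 and Tox. Mouse 1189 was highest in Acot3 and Tox, second in Atp6v0d2, and eighth of 9 in Ntrk2. Mouse 1187 was highest in Ntrk2 and Atp6v0d2. Outside the members, mouse 1181 was also highest in Cyp2b9, a female-biased cytochrome P450, at 83.3 CPM, while the remaining 8 ran from 1.94 to 16.7 CPM. Hsd3b5, a male-biased steroid dehydrogenase, was lowest in 1181 (5.10 CPM) and 1187 (8.03 CPM) and at 43.4 to 303 CPM in the other 7. Selenbp2, also male-biased, was lowest in 1181 (17.2 CPM) but not in 1187 (172 CPM, rank 3 of 9), and female-biased Slc22a26 was highest in 1189 (10.4 CPM), with 9.14 CPM in 1181. Hsd3b5 and Selenbp2 were added to the named genes after their values were seen.

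**Figure D4:**
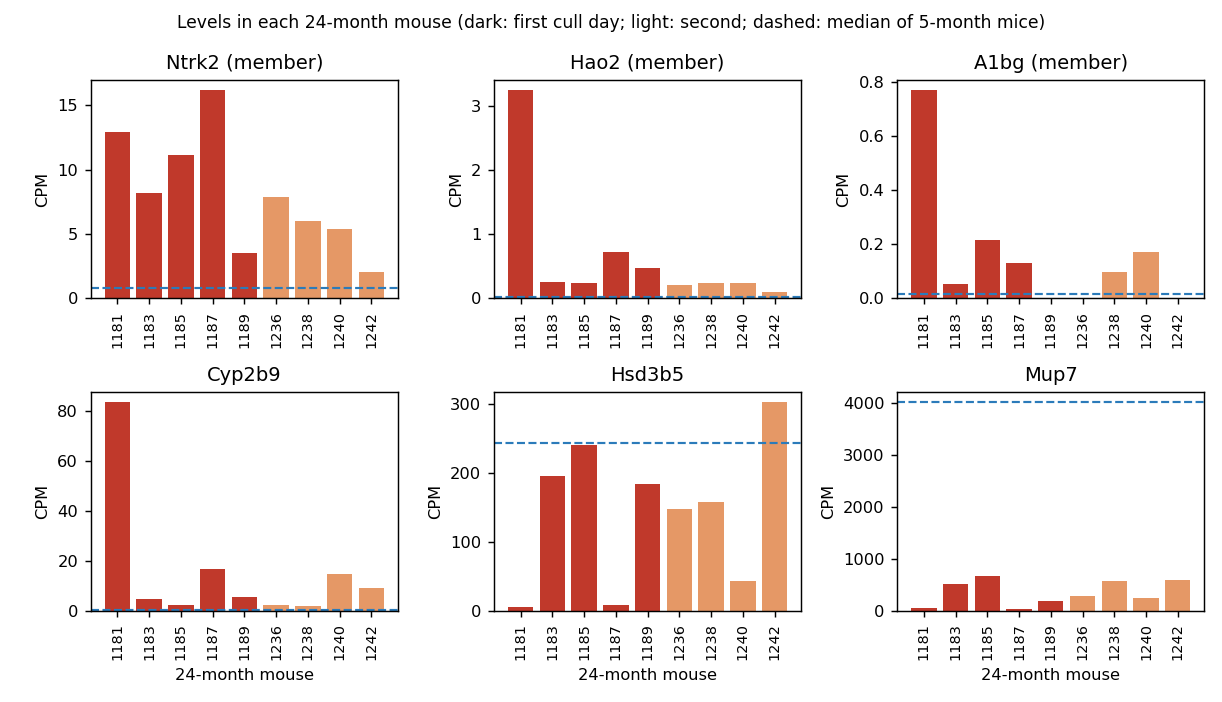
Level (CPM, linear axes from 0) of 3 members and 3 other growth hormone-regulated genes in each of the 9 old mice, dark for the first cull day and light for the second, with the median of the 10 young mice dashed. Mouse 1181 has the highest bar in Hao2 (3.25 CPM), A1bg (0.768 CPM) and Cyp2b9 (83.3 CPM), while Mup7 is below the young median in all 9.

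Genes most like the members as a group were found by correlating each gene with the mean of the 5 tested members, over the 19 libraries and with age by cull day means subtracted. They were Slc22a26 (r = 0.861), Slc16a5 (0.842), Rnf113a1 (0.786), Inhbe (0.772) and Fzd1 (0.760). Slc22a26, an organic anion transporter gene, is itself on the list of other female-biased genes. The likest genes to Cux2 are not given, since it did not pass the filter.

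Other female-biased genes held low by growth hormone pulses were examined from a list of 39. Of 30 tested, 10 were higher and 2 lower in old mice, 40.0% called against 30.9% of all tested genes, and the median log2 fold change was 0.53, against -0.003 over all tested genes. Slc22a26 was at 0.0273 to 0.927 CPM in young and 1.51 to 10.4 CPM in old mice (log2 fold change 4.31, SE 0.496, edgeR adjusted p = 2.59e-05). Its neighbour Slc22a27 had a log2 fold change of 3.29 (SE 0.507) and Rad51b, a DNA repair gene, one of 2.55 (SE 0.359). Cyp2b9 had 0 to 3 counts in young and 40 to 1626.5 counts in old libraries. Without young mice 1184, 1186 and 1188, 9 were higher and 3 lower, where 27.2% of all genes were called, and the median was 0.18. Cyp4a14, Cyp4a10, Acot4 and Cd36 are on this list and on that of PPAR alpha targets. Cyp4a14, Cyp4a10 and Acot4 were lower in those 3 mice than in all other young mice, and their part in the change of the median was not tested. Prlr, Trim24 and Foxa2 are also on the list of growth hormone receptor pathway genes. With other-cell markers entered as a covariate, 10 were higher and 0 lower, where 13.2% of all genes were called, and the median was 0.85.

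Male-biased genes that pulses sustain were examined from a list of 34. Of 33 tested, 18 were lower in old mice and 0 higher (edgeR), 54.5% called against 30.9% of all tested genes, with 0 higher also at an unadjusted p under 0.05 and by DESeq2 and limma-voom, and the median was -0.72. Mup2, a major urinary protein that carries pheromones, fell by 3.15 on the log2 scale (SE 0.383, edgeR adjusted p = 3.8e-05), and Mup1 fell by 2.49. Ugt2b1 and Ugt2b38, glucuronosyltransferases, fell by 0.90 and 0.83. Mup7 was at 1329 to 9039 CPM in young and 22.5 to 658 CPM in old mice. Mup transcripts are near-identical, so values of single Mup genes are uncertain. Once the other-cell score entered as a covariate, 11 of 33 were lower, where 13.2% of all tested genes were called. Without young mice 1184, 1186 and 1188, 20 were lower and 1 higher, where 27.2% of all genes were called. Both lists were drawn up with earlier results of these mice known, so their directions are not independent evidence.

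Genes of the growth hormone receptor pathway itself were called at 25.9%, near the 30.9% of all tested genes. Of 27 tested, 3 were higher in old mice (Prlr and Trim24 among them) and 4 lower (Ptpn11, Cux1, Hnf4a and Rxra), with a median of -0.02. Without young mice 1184, 1186 and 1188, 5 were higher and 2 lower, where 27.2% of all genes were called, and the median was 0.07. Prlr, the prolactin receptor and itself female-biased, was at 21.8 to 64.3 CPM in young and 70.8 to 162 CPM in old mice, without overlap (log2 fold change 1.15, SE 0.191, edgeR adjusted p = 0.000385). Cux1, the relative of Cux2, had a log2 fold change of -0.40. Ghr, the receptor gene, was not called (-0.23 on the log2 scale, SE 0.108, edgeR adjusted p = 0.117), and the STAT5 targets Socs2 and Igf1 had 0.61 (SE 0.395) and 0.09 (SE 0.082), with adjusted p of 0.246 and 0.455. Of 24 acute-phase genes 0 were called by edgeR, with 2 at an unadjusted p under 0.05, 1 by DESeq2 and 1 by limma-voom. Once young mice 1184, 1186 and 1188 were left out, 21 were higher in old mice (median 1.34), where 27.2% of all genes were called. Those 3 mice stood out by their high acute-phase sums, so this count is not independent of the choice to leave them out. With the other-cell score as covariate and all mice kept, 3 were lower and 0 higher, near the 13.2% of all genes called, and the median was -0.96.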

How the data were processed

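The authors deposited 1 table of estimated counts per gene, written by HOMER for mm10 RefSeq exons and left raw, per the file headers. The submitters' processing notes also name STAR. Versions, the handling of reads with several matches and the strand setting are not given in the sources used here, so values of paralogs are uncertain. Values were multiples of 0.5, and 29.2% were not whole. They were rounded to whole counts for tests, in place of the plain counts the tests had been designed for. Log2 CPM, used for correlations and marker scores, also came from rounded counts, while CPM levels kept unrounded ones. All 19 columns matched a mouse by number.

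Age was tested with edgeR 4.0.16 (R 4.3.3) by quasi-likelihood with TMM scaling, filterByExpr (minimum count 10) and cull day as a term. Adjustment was by Benjamini-Hochberg over 12269 genes, with a threshold of 0.05. SE is the absolute log2 fold change over the root of F. The script was tested on simulated data. The labels number the libraries but do not say outright that each is a separate mouse; if some are not, p-values measure only the spread between libraries. Correlations used log2 CPM (prior count 2) with exact permutation in old mice and 100000 resamples in young, all two-sided. The other-cell score is the mean log2 CPM of 51 tested markers of macrophages, endothelium, stellate cells, bile duct, lymphocytes and neutrophils. A floor of 3 counts was used for detection and covers counting error only.

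Members and lists were chosen with earlier results of these data known. Named genes are the members, up to 4 genes per list past the threshold with the smallest p and a mean of at least 1 CPM, the 5 genes most like the members, and Cyp2b9, Mup7, Socs2, Igf1 and Ghr. Some genes that this rule takes are not reported here. Alternatives were library totals, DESeq2 size factors, other filters, DESeq2 1.42.0, limma-voom (limma 3.58.1), each cull day, cell scores as covariates, and leaving out mice. Gene neighbours within 250 kb, the likest genes to single members, an acute-phase covariate, the unfiltered fit without old mice 1181 and 1187, and list counts without old mouse 1181 or 1187 were added after seeing the data. Coordinates are those of the table, counted from 1. Transcript models are GENCODE M21. Python 3.11.15 with matplotlib drew the plots.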

Additional observations from a re-analysis of the deposited data

Results flagged for a closer look

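Within 7 of the 18 sets of values (9 members at 2 ages), 1 mouse stood far from the rest, with a gap to the next mouse that exceeded Dixon's 95% limit as a share of the whole range. For normally distributed values chance gives about 1 in 20, a rate that need not hold for linear CPM, which is skewed to high values, nor for counts near the floor. In every case it was the highest mouse. Young mouse 1243 was at 3.82 CPM in Fmo2, with the next mouse at 1.92 CPM, and at 26.0 CPM in Acot3, with the next at 10.5 CPM. Young mouse 1186 was at 5.38 CPM in Atp6v0d2, with the next at 2.34 CPM, and young mouse 1239 at 0.495 CPM in Hao2, with the next at 0.109 CPM. Old mouse 1181 was at 0.768 CPM in A1bg, with the next at 0.214 CPM, and at 3.25 CPM in Hao2, with the next at 0.718 CPM. Old mouse 1189 was at 42.9 CPM in Acot3, with the next at 13.4 CPM. Ntrk2, Tox, Cux2 and Prom1 had no such mouse at either age.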

How the results depend on the processing

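No paired analysis was possible because the library numbers are not shared between ages. Of the 5 members, 2 were called by age, and 1 was called on the first cull day alone, with the other-cell, macrophage, endothelial or stellate score as a covariate, and, of 9 without the filter, without old mice 1181 and 1187. Leaving out single mice gave 1 to 2. Over all genes, 3785 were called by age, against 450 and 2389 on the first and second cull day alone, 1614 with the other-cell score, 2360 with macrophage, 1184 with endothelial and 1141 with stellate scores, and 3014 to 3949 without single mice. For cull day, 1 member passed with DESeq2 (16.8% of all genes did), and 0 to 1 without single mice. The cull day difference of Acot3 was -0.68 without young mice 1184, 1186 and 1188, against 0.61 with them, and the age by cull day term of Atp6v0d2, 0.62, ran from -0.02 to 1.09 without single mice. Male-biased genes called fell from 18 to 11 with the other-cell score. PPAR alpha targets called went from 3 to 5 with DESeq2 size factors, 5 (all higher) with the other-cell score, 15 without the 3 young mice, and 2 to 7 without old mouse 1181 or 1187. Acute-phase genes called went from 0 to 3 (all lower in old mice) with the other-cell score and 21 (all higher) without the 3 young mice, which stood out by their acute-phase sums. Relations of Cux2 that passed went from 0 to 0 to 1 without single mice, the 1 being Acot3 without old mouse 1236. The causes were not tested. Ntrk2 was called in every alternative run. Low counts limit Cux2, A1bg, Prom1 and Hao2 most.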

Other observations

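No member overlapped another gene of the table. Genes within 250 kb of each member are described by their own age differences, since few members were called and many neighbours were not tested. Over all tested genes 30.9% were called by age. Of 10 tested neighbours of Cux2, 3 were higher and 3 lower in old mice, and of 4 of Atp6v0d2, 1 was higher and 2 were lower. A1bg had 1 higher of 2 tested, Prom1 1 higher of 3 and Tox 0 called of 1. Hao2 lies beside a cluster of 3-beta-hydroxysteroid dehydrogenase genes. Hsd3b2, Hsd3b3 and Hsd3b5 had log2 fold changes of -0.29, -0.27 and -0.79, and 0 of 4 tested neighbours of Hao2 were called by edgeR at an adjusted p of 0.05. Acot3 lies among thioesterase genes, where Acot1, Acot2 and Acot4 were at -0.61, 0.14 and 0.13 and were not called. Of its 8 tested neighbours 1 was higher (Dnal1) and 1 lower (Ptgr2). Fmo2 lies among monooxygenase genes with both directions: Fmo1, itself on the list of other female-biased genes, was lower in old mice (log2 fold change -0.51, edgeR adjusted p = 0.00551) and Fmo4 was higher (0.41, adjusted p = 0.0184). Ntrk2 had no tested neighbour.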
